A study of Mus musculus with 9 samples.

Results

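STAT proteins are latent transcription factors that carry cytokine signals from the cell surface to the nucleus. A cytokine receptor activates its bound JAK kinases, these phosphorylate a STAT, and the paired STATs enter the nucleus and bind DNA. In CD4 T cells the choice of STAT helps to set the helper lineage, with STAT4 linked to IL12 and Th1 cells, STAT6 to IL4 and Th2 cells, STAT3 to IL6 and Th17 cells, and STAT5 to IL2 and regulatory T cells. The 6 genes described are Stat2, Stat3, Stat4, Stat5a, Stat5b and Stat6, chosen by the symbol that the array's annotation gives each probe set, out of 18193 genes that the annotation names. They are read by 13 of the 45037 probe sets tested. For each gene the brightest probe set (highest mean over 9 arrays) gives the main value and its other probe sets serve as a check.

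RNA was measured on 9 Affymetrix mouse expression arrays, 3 in each of 3 groups. The pltTGFβ_iTreg and purTGFβ_iTreg groups were induced regulatory T cells grown from spleen CD4 T cells of Foxp3EGFP mice on the C57BL/6 (B6) background, sorted before culture as negative for the reporter of Foxp3. Cultures ran for 72 hours with IL2 (100 U/ml) and anti-CD28 (1 µg/ml) over plates coated with anti-CD3 (2.5 µg/ml), and with TGFβ from freeze-thaw lysates of wild-type C57BL/6 platelets in pltTGFβ_iTreg cultures and purified TGFβ1 (5 ng/ml) in purTGFβ_iTreg cultures. Tconv, the conventional T cells against which both were set, carry the same strain label, but a treatment note shared by every sample has Tconv receiving TGFβ1, so their treatment is not settled. The amount of TGFβ in the lysate cultures, the composition of the lysate beyond TGFβ, and any sorting after culture are not given in the sources used here.

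Values are RMA log2 expression, a scale on which 1 unit is a doubling. Markers of T cells were bright, with the mean over 7 of 8 listed markers at 10.51 to 10.57 in pltTGFβ_iTreg, 10.34 to 10.46 in purTGFβ_iTreg and 10.63 to 10.83 in Tconv. The mean over 3 of 4 B cell markers was 3.76 to 4.07 in pltTGFβ_iTreg, 3.86 to 4.14 in purTGFβ_iTreg and 4.46 to 4.53 in Tconv. The mean over 4 myeloid markers was 3.90 to 4.04 in pltTGFβ_iTreg, 3.86 to 4.04 in purTGFβ_iTreg and 4.08 to 4.30 in Tconv, and that over 4 platelet markers was 4.17 to 4.35 in pltTGFβ_iTreg, 4.07 to 4.23 in purTGFβ_iTreg and 4.48 to 4.61 in Tconv. The mean of 2 CD8 T cell markers was 4.94 to 5.13 in pltTGFβ_iTreg, 5.04 to 5.16 in purTGFβ_iTreg and 5.53 to 5.71 in Tconv. All of these means stood higher in Tconv, and 1 gene carried the B cell and CD8 means. Cd79b (-1.65 in pltTGFβ_iTreg and -1.46 in purTGFβ_iTreg against Tconv) and Cd8b1 (-1.04 and -0.98) were called lower, whereas Cd79a, Ms4a1 and Cd8a were not called. The part of such cells in the results was not tested. Foxp3, which defines regulatory T cells, read 3.84 to 3.90 in pltTGFβ_iTreg, 3.68 to 3.84 in purTGFβ_iTreg and 3.66 to 3.88 in Tconv, so its probe set did not set the iTreg cultures apart. The Tconv arrays also differed from all iTreg arrays in Xist, the RNA by which female cells silence 1 of their X chromosomes. It read 3.90 to 3.99 in pltTGFβ_iTreg, 3.37 to 3.75 in purTGFβ_iTreg and 10.63 to 10.94 in Tconv. Donor sex and iTreg culture therefore cannot be told apart in any comparison with Tconv, while the comparison between the iTreg groups does not carry that difference. A probe set was called changed at a limma adjusted p under 0.1 with an absolute log2 change above 0.5, the cutoffs of the study.

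The start regions of Stat4, called in every comparison, and of Stat2, called in 1 of them, are shown because each held a DNA element of the pathway, and those of Stat5a and Stat5b because the genes are near-copies. They are from RefSeq (GRCm38.p6), which gave 9 start windows of 300 bases for the 6 genes, each from 250 bases before to 50 after an annotated start. Capitals mark a match to any of 3 motifs, each searched on both strands. The GAS element bound by STAT dimers was TTCNNNGAA, the spacing preferred by STAT6 was TTC and GAA with 4 free bases between them, and the core of the ISRE, the interferon element bound by the complex of STAT2 and IRF9, was GAAA repeated after 2 free bases. Of 32851 mouse start windows of that length, 8.3%, 6.95% and 3.44% held these letters in that order. No STAT window held the GAS letters. The Stat2 window (chr10:128270248-128270547, plus strand) held the ISRE letters at bases -222 to -213 from the start and the wider STAT6 letters at -210 to -201. The second of the annotated Stat4 windows (chr1:52007990-52008289, plus strand) held the ISRE letters at -97 to -88, and the first held none.
Stat2: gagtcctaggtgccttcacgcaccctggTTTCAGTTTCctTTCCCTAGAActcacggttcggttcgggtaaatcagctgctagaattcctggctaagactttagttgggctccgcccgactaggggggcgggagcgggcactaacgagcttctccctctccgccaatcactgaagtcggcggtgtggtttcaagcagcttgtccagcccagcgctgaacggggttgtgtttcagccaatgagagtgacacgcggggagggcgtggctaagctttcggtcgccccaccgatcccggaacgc
Stat4: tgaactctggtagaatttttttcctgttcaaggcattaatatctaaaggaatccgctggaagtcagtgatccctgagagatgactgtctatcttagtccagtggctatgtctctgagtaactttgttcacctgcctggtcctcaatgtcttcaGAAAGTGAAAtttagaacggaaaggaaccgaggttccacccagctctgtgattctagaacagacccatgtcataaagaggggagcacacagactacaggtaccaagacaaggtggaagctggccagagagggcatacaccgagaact

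Stat5a, Stat5b and Stat3 are consecutive genes on chromosome 11 in the RefSeq table, while Stat2 and Stat6 lie on chromosome 10 and Stat4 on chromosome 1. Stat5a and Stat5b are sister copies that encode near-identical proteins, and their start windows also share a stretch of 65 bases with 58 identical (89.2%). The letters of the array's probes were not analysed here, so cross-hybridisation between the sister genes was not tested. Capitals mark the identical bases, in chr11:100860418-100860482 (plus strand) for Stat5a and chr11:100822563-100822627 (minus strand) for Stat5b.
Stat5a: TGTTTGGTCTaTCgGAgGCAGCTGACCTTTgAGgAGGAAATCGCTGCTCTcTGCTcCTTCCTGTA
Stat5b: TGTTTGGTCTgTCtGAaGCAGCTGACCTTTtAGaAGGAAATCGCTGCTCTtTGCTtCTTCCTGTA

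Stat4 moved more than any other member, and it was the only one called in every comparison. This gene encodes the STAT that answers IL12 and drives interferon gamma in Th1 cells. It read 8.23, 8.24 and 8.15 in pltTGFβ_iTreg, 7.45, 7.29 and 7.41 in purTGFβ_iTreg, and 9.47, 9.33 and 9.26 in Tconv. No array of one group reached the range of another, so the groups stood in clear steps with Tconv highest, pltTGFβ_iTreg between and purTGFβ_iTreg lowest. Stat4 was 2.21-fold lower in pltTGFβ_iTreg than in Tconv (log2 change -1.14 ± 0.08, SE, limma adjusted p = 6.57e-07) and 3.92-fold lower in purTGFβ_iTreg than in Tconv (-1.97 ± 0.08, limma adjusted p = 9.54e-09). Between the iTreg groups it was 1.77-fold higher in pltTGFβ_iTreg than in purTGFβ_iTreg (0.83 ± 0.08, adjusted p = 1.30e-04, 95% interval 0.64 to 1.01). In bulk RNA, fewer cells that express a gene and less RNA per cell cannot be told apart. Stat4 has 1 named probe set on the array, so no other probe set checks it.

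**Figure D1:**
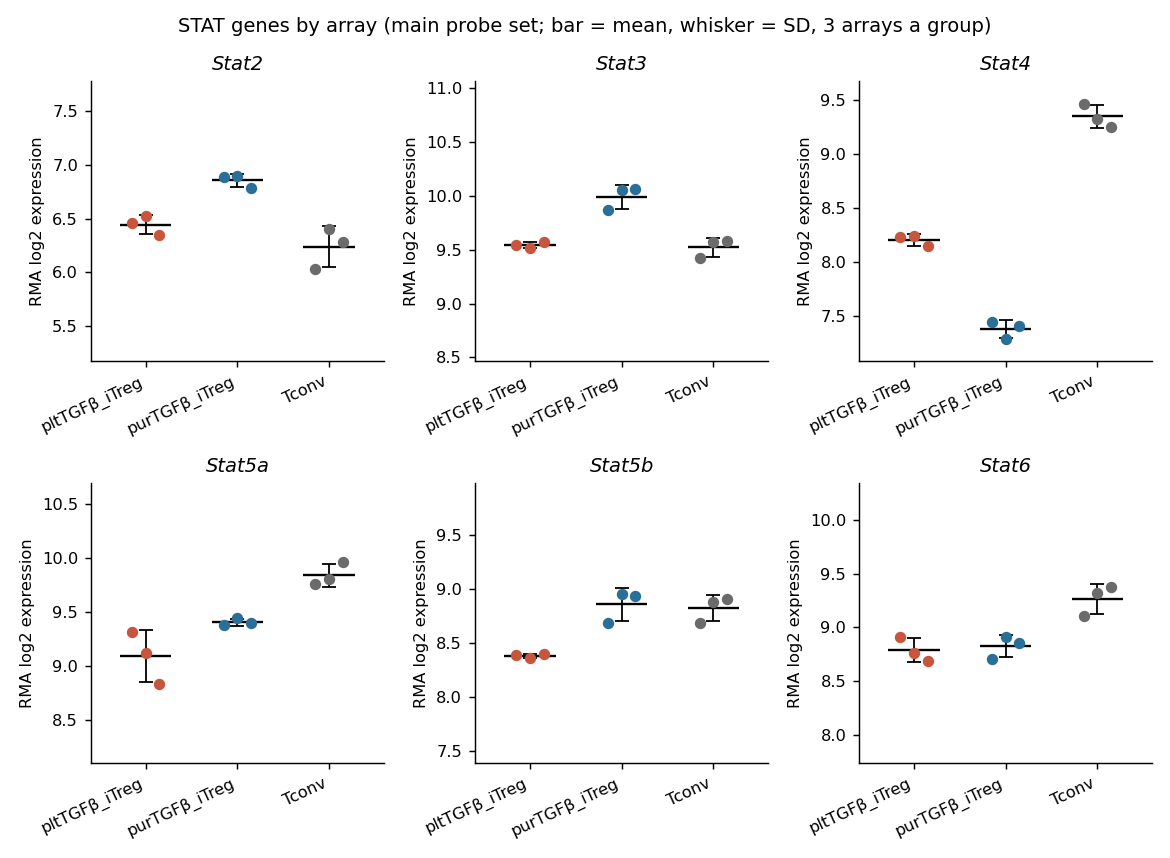
RMA log2 expression of the main probe set of each STAT gene on every array, with pltTGFβ_iTreg left, purTGFβ_iTreg in the middle and Tconv right; points are arrays, bars group means and whiskers SD (n = 3), and every panel spans the same number of log2 units. Stat4 separates all 3 groups (means 8.21, 7.38 and 9.35), while Stat3 and Stat2 are highest in purTGFβ_iTreg and Stat5b is lowest in pltTGFβ_iTreg.

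Stat6, which carries the IL4 signal in Th2 cells, read lower in both iTreg groups than in Tconv. Its main probe set read 8.91, 8.77 and 8.69 in pltTGFβ_iTreg, 8.71, 8.91 and 8.86 in purTGFβ_iTreg, and 9.11, 9.32 and 9.37 in Tconv. The iTreg groups overlapped each other, and neither overlapped Tconv. The log2 changes against Tconv were -0.48 ± 0.10 for pltTGFβ_iTreg (SE, adjusted p = 0.00205) and -0.44 ± 0.10 for purTGFβ_iTreg (adjusted p = 0.00334), which passed on p and missed the fold cutoff. The other Stat6 probe set was called lower in both, at -0.58 in pltTGFβ_iTreg and -0.65 in purTGFβ_iTreg. Without Tconv replicate 1 the main probe set was called too, at -0.56 for pltTGFβ_iTreg and -0.52 for purTGFβ_iTreg. The log2 difference between pltTGFβ_iTreg and purTGFβ_iTreg was -0.036 (95% interval -0.25 to 0.18), which did not pass and changed sign with the mean of both probe sets (0.020). Without pltTGFβ_iTreg replicate 1 the change against Tconv was called at -0.54.

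Stat3, the STAT of IL6, IL21 and IL23 in Th17 cells, was highest in purTGFβ_iTreg. Its main probe set read 9.54, 9.51 and 9.57 in pltTGFβ_iTreg, 9.86, 10.05 and 10.06 in purTGFβ_iTreg, and 9.42, 9.57 and 9.58 in Tconv. All purTGFβ_iTreg arrays lay above every array of the other groups, which overlapped each other. The log2 change was -0.45 ± 0.08 for pltTGFβ_iTreg against purTGFβ_iTreg (SE, adjusted p = 0.00850) and 0.47 ± 0.08 for purTGFβ_iTreg against Tconv (adjusted p = 7.78e-04), and both missed the fold cutoff. Without purTGFβ_iTreg replicate 1, the lowest of its group, both were called, at -0.51 and 0.53 in that order. For pltTGFβ_iTreg against Tconv the log2 change was 0.021 (95% interval -0.16 to 0.21, not passed), and its sign turned under quantile normalization (-0.070) and without Tconv replicate 1 (-0.029). Of the other Stat3 probe sets, that of next brightness gave -0.40 for pltTGFβ_iTreg against purTGFβ_iTreg and 0.42 for purTGFβ_iTreg against Tconv, a dim probe set was called higher in purTGFβ_iTreg than in Tconv (0.63), and the dimmest gave 0.030 there. Those 2 gave -0.14 and -0.093 for pltTGFβ_iTreg against purTGFβ_iTreg, with overlapping arrays, and the mean of all Stat3 probe sets gave -0.27. The dim probe set gave 0.48 for pltTGFβ_iTreg against Tconv, under the fold cutoff.

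Stat2, which joins IRF9 in the complex that answers type I interferon, was also highest in purTGFβ_iTreg. Its main probe set read 6.46, 6.52 and 6.35 in pltTGFβ_iTreg, 6.88, 6.89 and 6.78 in purTGFβ_iTreg, and 6.04, 6.41 and 6.28 in Tconv. The purTGFβ_iTreg arrays lay above all others, and the pltTGFβ_iTreg and Tconv arrays overlapped. Stat2 rose 1.53-fold in purTGFβ_iTreg against Tconv (log2 change 0.61 ± 0.10, SE, adjusted p = 3.99e-04). That call was lost under quantile normalization, at 0.38, and with the mean of its probe sets, at 0.48, since the other probe set read 0.35. Between pltTGFβ_iTreg and purTGFβ_iTreg the log2 difference was -0.41 ± 0.10 (adjusted p = 0.0373), under the fold cutoff, and the other probe set was called lower in pltTGFβ_iTreg at -0.50 (adjusted p = 0.0794). The change of 0.20 for pltTGFβ_iTreg against Tconv did not pass (adjusted p = 0.125), and the other probe set gave -0.15. It was 0.024 with the mean of both probe sets, 0.016 under quantile normalization and 0.10 without Tconv replicate 1.

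The STAT5 genes carry the signal of IL2, the cytokine added to the iTreg cultures, and both read lower in pltTGFβ_iTreg than in Tconv. Stat5a read 9.32, 9.12 and 8.84 in pltTGFβ_iTreg, 9.38, 9.44 and 9.40 in purTGFβ_iTreg, and 9.76, 9.81 and 9.97 in Tconv. Its pltTGFβ_iTreg arrays spread over 0.48 log2 units, the widest range of any member in any group, and still lay below all others. Stat5a fell in pltTGFβ_iTreg, 1.69-fold lower than in Tconv (log2 change -0.75 ± 0.11, SE, adjusted p = 2.24e-04). The change in purTGFβ_iTreg against Tconv was -0.44 ± 0.11 (adjusted p = 0.00853), under the fold cutoff. The other Stat5a probe set gave -0.42 and -0.18 for those comparisons and was not called. The log2 difference of -0.32 between pltTGFβ_iTreg and purTGFβ_iTreg did not pass (adjusted p = 0.182), and it was -0.19 without pltTGFβ_iTreg replicate 3. The other probe set gave -0.24 there, with arrays that overlapped.

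On the main probe sets Stat5b read alike in purTGFβ_iTreg and Tconv, where its sister gene read lower in purTGFβ_iTreg. Stat5b read 8.38, 8.36 and 8.39 in pltTGFβ_iTreg, 8.69, 8.96 and 8.93 in purTGFβ_iTreg, and 8.69, 8.88 and 8.91 in Tconv. The purTGFβ_iTreg and Tconv arrays overlapped, and the pltTGFβ_iTreg arrays lay below both within a range of 0.032. The log2 change was -0.44 ± 0.10 for pltTGFβ_iTreg against Tconv (SE, adjusted p = 0.00269) and -0.48 ± 0.10 for pltTGFβ_iTreg against purTGFβ_iTreg (adjusted p = 0.0119), both under the fold cutoff. The other Stat5b probe set gave -0.45 and -0.42. Leaving out a single array brought calls, at -0.51 for pltTGFβ_iTreg against Tconv without Tconv replicate 1 and at -0.56 for pltTGFβ_iTreg against purTGFβ_iTreg without purTGFβ_iTreg replicate 1. For purTGFβ_iTreg against Tconv the log2 change was 0.035 (95% interval -0.17 to 0.24, not passed), and the other probe set gave -0.028. The sign of the main value turned under quantile normalization (-0.12) and without Tconv replicate 1 (-0.034). It also turned without purTGFβ_iTreg replicate 2 (-0.014) or 3 (-0.0027), so the order of these groups is not settled.

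**Figure D2:**
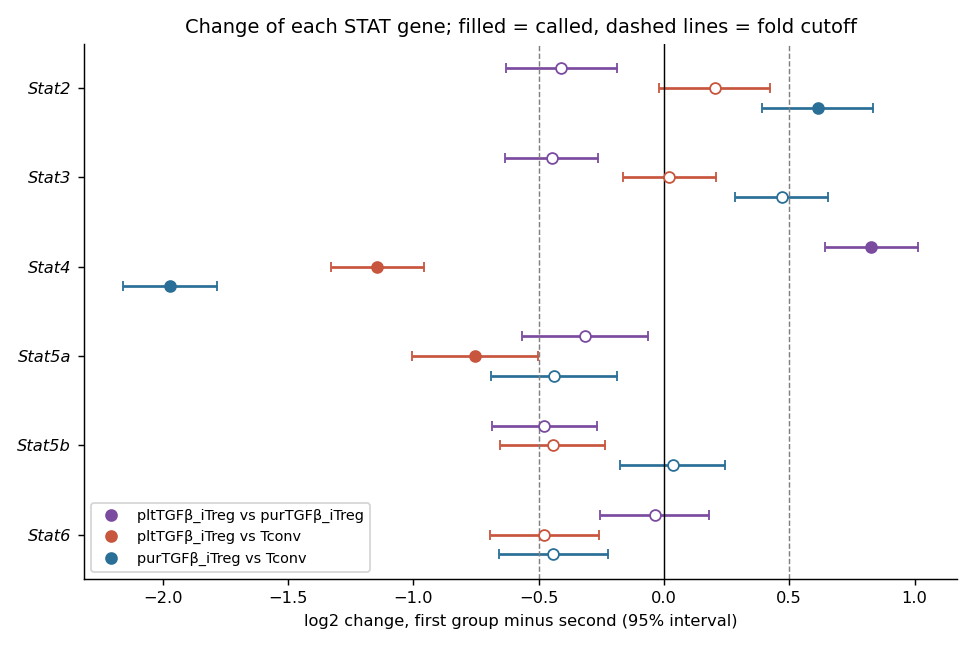
Log2 change of each STAT gene (main probe set, first group minus second) with its 95% interval, for pltTGFβ_iTreg against purTGFβ_iTreg, pltTGFβ_iTreg against Tconv and purTGFβ_iTreg against Tconv. Filled points were called and dashed lines mark the fold cutoff. Outside it lie Stat4 in every comparison, Stat2 in purTGFβ_iTreg against Tconv and Stat5a in pltTGFβ_iTreg against Tconv. The other points lie inside it, some of them only just.

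In pltTGFβ_iTreg against purTGFβ_iTreg 1 of 6 members was called, Stat4 higher, where 4.11% of all 18193 genes were called (1.54% higher and 2.57% lower), and the count was 3 without purTGFβ_iTreg replicate 1. A single gene of 6 says little of the family against that share. In pltTGFβ_iTreg against Tconv 2 of 6 were called, Stat4 and Stat5a, both lower, where 28.5% of all genes were (13.9% higher and 14.7% lower). That count was 4 without Tconv replicate 1 and 4 under quantile normalization. In purTGFβ_iTreg against Tconv 2 of 6 were called, Stat2 higher and Stat4 lower, where 29.3% of all genes were (14.5% higher and 14.9% lower). Both shares against Tconv are near the background, so the counts are no result about the family. Of all genes called, the share that was higher was 48.5% in pltTGFβ_iTreg and 49.3% in purTGFβ_iTreg against Tconv, and 38.4% and 38.6% after quantile normalization. On adjusted p alone, 4 of 6 members passed in pltTGFβ_iTreg against purTGFβ_iTreg, where 9.72% of all genes did. Against Tconv 4 passed in pltTGFβ_iTreg, where 60.4% of all genes did, and 5 passed in purTGFβ_iTreg, where 63.4% did. The arrays of pltTGFβ_iTreg and purTGFβ_iTreg did not overlap for 5 of 6 members, against 28.2% of all genes, and Stat6 was the exception. For pltTGFβ_iTreg and Tconv 4 of 6 did not overlap, where 59.0% of all genes did not, and for purTGFβ_iTreg and Tconv 5 of 6, where 62.7% did not. The median log2 change of the members was -0.36 for pltTGFβ_iTreg against purTGFβ_iTreg (all genes 0.01), -0.46 for pltTGFβ_iTreg against Tconv (all genes -0.16) and -0.20 for purTGFβ_iTreg against Tconv (all genes -0.17). Both comparisons with Tconv share the same Tconv arrays.

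**Figure D3:**
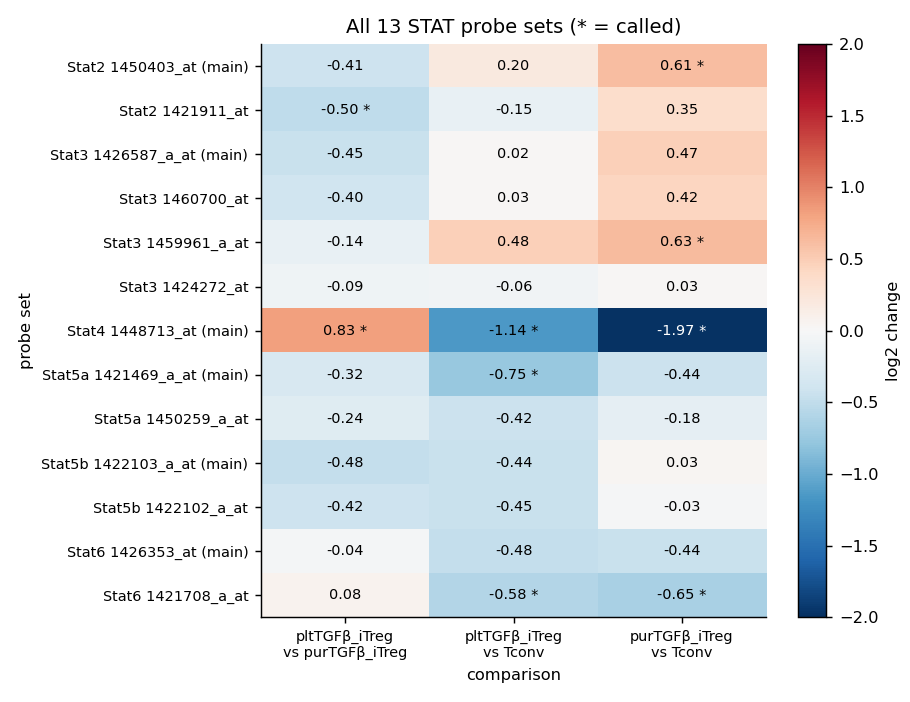
Log2 change of all 13 STAT probe sets (rows) in the 3 comparisons (columns), red for higher and blue for lower in the first group, with an asterisk for a call. Probe sets of 1 gene mostly share a sign, and calls differ where values lie near the fold cutoff, as for Stat6 (-0.48 and -0.58 in pltTGFβ_iTreg against Tconv).

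A rule picked the genes most like each called member, by the smallest root mean square difference between mean-centred log2 profiles over the 9 arrays, among 16323 genes with proper names. For Stat4 these were Prelid2 (0.079 log2 units) and Sema4b (0.128), for Stat2 Diablo (0.064) and Foxk1 (0.072), and for Stat5a Lin37 (0.058) and Htra2 (0.071). Prelid2, like Stat4, was lowest in purTGFβ_iTreg, with means of 8.14 in pltTGFβ_iTreg, 7.35 in purTGFβ_iTreg and 9.22 in Tconv. No other STAT came near the Stat4 profile, the closest being Stat6 at 0.643 log2 units, whereas Stat2 and Stat3 differed by 0.129. The measure counts the size of a change as well as its shape, and Stat4 moved most. Its distance from the other members therefore does not by itself mean another pattern.

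The JAK kinases, which phosphorylate STATs, were measured by 4 genes. Both kinases called against Tconv were lower. Jak3, the partner of the common gamma chain, fell in pltTGFβ_iTreg (log2 change -0.97 ± 0.16, SE, adjusted p = 3.17e-04) and in purTGFβ_iTreg (-0.85 ± 0.16, adjusted p = 8.35e-04). It read 7.71 to 7.75 in pltTGFβ_iTreg, 7.72 to 7.93 in purTGFβ_iTreg and 8.29 to 9.06 in Tconv. Tyk2, which serves the receptors of IL12 and type I interferon, fell by 0.67 in pltTGFβ_iTreg and fell by 0.72 in purTGFβ_iTreg, and its other probe set was not called. The Tyk2 mean over probe sets in pltTGFβ_iTreg was -0.48, under the fold cutoff. Jak1 gave 0.44 and Jak2 0.25 in purTGFβ_iTreg against Tconv, under the fold cutoff, though the other Jak1 probe sets were called higher there at 0.57 and 0.58 and the main one was called without Tconv replicate 3 (0.54). None of the 4 kinases was called between the iTreg groups, where log2 differences lay between -0.17 and 0.17.

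Receptor chains, brakes and target genes were read from lists written from general knowledge, some of which share genes, such as Socs2, Cish and Il12rb2. The lists were chosen with earlier results of these data known, so their counts are no independent test of the pathway. Over all pathway lists, 73 of 78 genes were measured. In pltTGFβ_iTreg against purTGFβ_iTreg 10 were called higher and 4 lower, where 1.54% of all genes were called higher and 2.57% lower. In pltTGFβ_iTreg against Tconv 21 were higher and 13 lower (all genes 13.9% and 14.7%), and in purTGFβ_iTreg against Tconv 18 were higher and 19 lower (all genes 14.5% and 14.9%). After quantile normalization the counts against Tconv were 18 higher and 16 lower in pltTGFβ_iTreg and 15 higher and 21 lower in purTGFβ_iTreg. Among 16 brakes on the pathway 5 rose and 2 fell in pltTGFβ_iTreg against Tconv (list median 0.40, all genes -0.16) and 6 rose and 2 fell in purTGFβ_iTreg against Tconv (list median 0.29, all genes -0.17). None was called between the iTreg groups (list median -0.0023, all genes 0.01). Socs2, a STAT5-induced inhibitor, rose by 3.89 in pltTGFβ_iTreg and by 4.14 in purTGFβ_iTreg on the log2 scale. Socs3, a STAT3-induced inhibitor, rose by 1.06 in pltTGFβ_iTreg and by 0.65 in purTGFβ_iTreg, and its gap between pltTGFβ_iTreg and purTGFβ_iTreg (0.42, adjusted p = 0.0179) was under the fold cutoff. Quantile normalization ended the Socs3 call in purTGFβ_iTreg (0.43). Cish, another STAT5-induced inhibitor, fell by 0.59 in purTGFβ_iTreg against Tconv, and Socs1 was called only without pltTGFβ_iTreg replicate 3 (0.53 in pltTGFβ_iTreg against Tconv).

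The receptor chains that answer IL12 differed between the iTreg groups in the same direction as Stat4. Il12rb1 was 1.58-fold higher in pltTGFβ_iTreg than in purTGFβ_iTreg (log2 change 0.66 ± 0.11, SE, adjusted p = 0.00331) and Il12rb2 2.20-fold higher (1.14 ± 0.14, adjusted p = 5.30e-04). Against Tconv the chains parted. Il12rb1 was called lower in both iTreg groups, at -0.90 in pltTGFβ_iTreg and -1.56 in purTGFβ_iTreg, whereas Il12rb2 rose by 0.84 in pltTGFβ_iTreg and read -0.30 in purTGFβ_iTreg without being called. Il12rb2 was dim on every array, at 4.85 to 5.36 in pltTGFβ_iTreg, 3.78 to 4.10 in purTGFβ_iTreg and 4.06 to 4.31 in Tconv, and RMA compresses folds of dim probe sets. Of 17 measured receptor chains 4 were higher and 1 lower in pltTGFβ_iTreg than in purTGFβ_iTreg, where 1.54% of all genes were called higher and 2.57% lower. The other rises were Il21r (0.66) and Il7r (0.58), and the fall was Il6st (-0.61), the signal chain shared by IL6 receptors upstream of STAT3, which was named after its value was seen.

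Genes that STAT4 is known to induce had the highest list median between the iTreg groups, among lists chosen with earlier results of these data known. Of 8 measured, 3 were higher and none lower in pltTGFβ_iTreg than in purTGFβ_iTreg (list median 0.40, all genes 0.01). Of all genes, 1.54% were called higher and 2.57% lower there. Ifng, which encodes interferon gamma, read 10.49, 10.47 and 10.39 in pltTGFβ_iTreg, 5.71, 5.29 and 5.75 in purTGFβ_iTreg, and 5.95, 5.95 and 5.74 in Tconv. Only the pltTGFβ_iTreg arrays stood apart, and Ifng was 29.2-fold higher there than in purTGFβ_iTreg (log2 change 4.87 ± 0.12, SE, adjusted p = 3.30e-09). Gadd45g, a stress gene that helps Th1 cytokine output, was 3.63-fold higher, and Il12rb2 was the third. Against Tconv 6 of the 8 were higher and 1 lower in pltTGFβ_iTreg (list median 0.75, all genes -0.16). In purTGFβ_iTreg 2 were higher and 2 lower (list median -0.30, all genes -0.17). Of all genes, 13.9% and 14.5% were called higher and 14.7% and 14.9% lower in those comparisons, in that order. Il18r1, a chain of the IL18 receptor, rose by 3.31 in pltTGFβ_iTreg and by 2.97 in purTGFβ_iTreg, and Tbx21, the Th1 master regulator, fell by 0.80 in pltTGFβ_iTreg and fell by 1.15 in purTGFβ_iTreg. Gadd45g was lower in purTGFβ_iTreg (6.30 to 6.74) than in Tconv (7.58 to 7.61). Furin, also of this list, rose by 0.84 in purTGFβ_iTreg against Tconv. Unlike Stat4, Furin read lower in pltTGFβ_iTreg (7.96 to 8.17) than in purTGFβ_iTreg (8.31 to 8.36). Ifng was thus higher in pltTGFβ_iTreg than in Tconv, by 4.57 on the log2 scale, while Stat4 was lower.

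**Figure D4:**
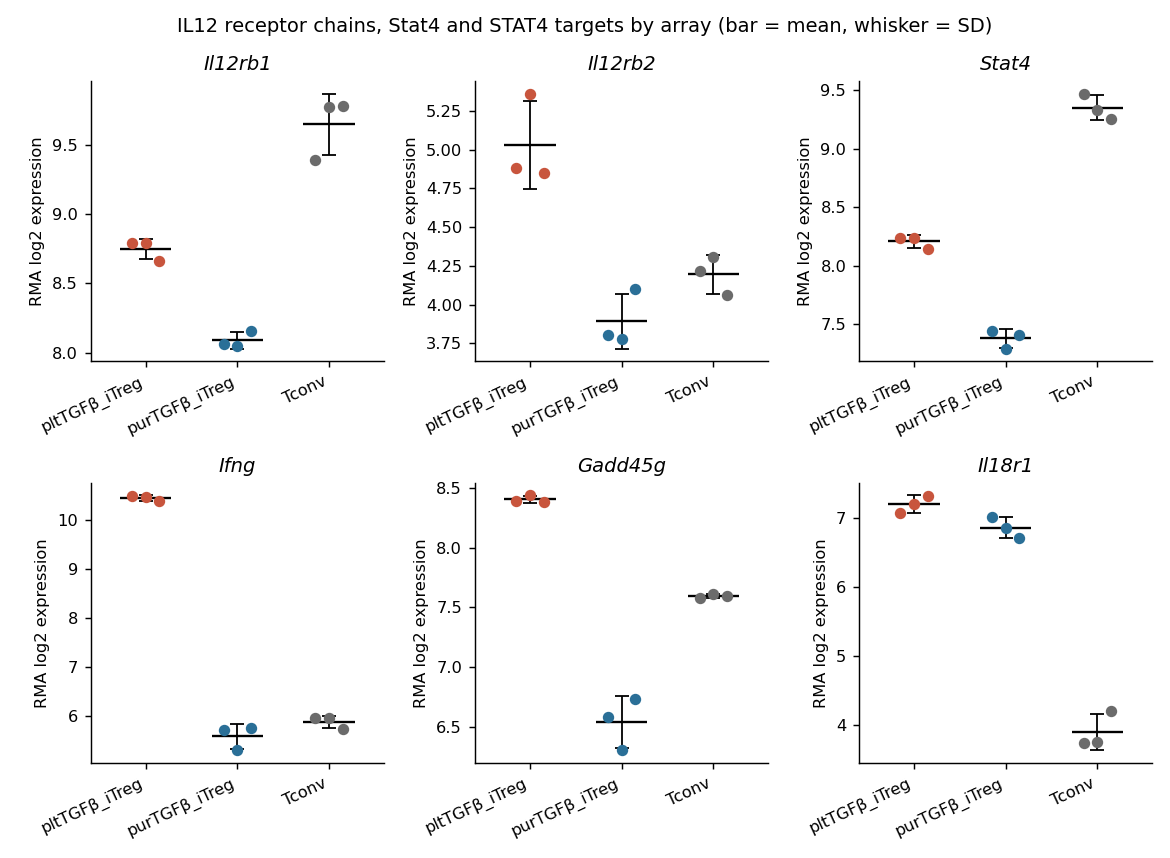
RMA log2 expression by array of the IL12 receptor chains Il12rb1 and Il12rb2, of Stat4 and of the STAT4-induced genes Ifng, Gadd45g and Il18r1, with pltTGFβ_iTreg left, purTGFβ_iTreg in the middle and Tconv right; points are arrays, bars means, whiskers SD (n = 3), and the vertical axes differ. The pltTGFβ_iTreg arrays lie above the purTGFβ_iTreg arrays in all 6 panels, though Il18r1 was not called between them (0.34), and Tconv is highest for Il12rb1 and Stat4. Furin of the STAT4 list, not shown, read the other way, at 7.96 to 8.17 in pltTGFβ_iTreg and 8.31 to 8.36 in purTGFβ_iTreg.

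Genes that STAT6 is known to induce included Il4, Gata3 and Il4ra, which were called lower in both iTreg groups than in Tconv. Of 8 measured, 4 fell and 1 rose in pltTGFβ_iTreg against Tconv (list median -0.23, all genes -0.16), and 4 fell and 1 rose in purTGFβ_iTreg against Tconv (list median -0.44, all genes -0.17). Of all genes, 14.7% and 14.9% were called lower and 13.9% and 14.5% higher in those comparisons. Gata3, the Th2 master regulator, fell by 2.14 in pltTGFβ_iTreg and fell by 2.56 in purTGFβ_iTreg. Il4 changed by -2.49 in pltTGFβ_iTreg and by -3.04 in purTGFβ_iTreg, and Il4ra, the IL4 receptor chain that activates STAT6, by -0.65 and -0.95 in that order. Between the iTreg groups Il4 was 1.47-fold higher in pltTGFβ_iTreg, at 4.29 to 4.48 against 3.76 to 3.93 in purTGFβ_iTreg. Il4 was thus dim in both, near the 3.66 to 3.90 that Foxp3 read over all arrays. Ccr8 was lower in pltTGFβ_iTreg than in purTGFβ_iTreg (-0.79). Unlike Il4, Gata3 and Il4ra, it stood highest in purTGFβ_iTreg, at 8.34 to 8.65 against 7.47 to 7.92 in pltTGFβ_iTreg and 7.01 to 7.65 in Tconv.

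Of 9 measured genes linked to STAT3, none rose and 2 fell in pltTGFβ_iTreg against purTGFβ_iTreg (list median 0.19, all genes 0.01). Of all genes, 1.54% were called higher and 2.57% lower there. In pltTGFβ_iTreg against Tconv 3 rose and 1 fell (list median 0.20, all genes -0.16), with 13.9% of all genes called higher and 14.7% lower. In purTGFβ_iTreg against Tconv 4 rose and 1 fell (list median 0.012, all genes -0.17), with 14.5% of all genes called higher and 14.9% lower. The 2 lower between the iTreg groups, where the list median was above 0, were Maf, a factor of IL10 and IL21 producing T cells (-1.36, limma adjusted p = 2.65e-06), and Rora, a Th17 factor (-0.70, limma adjusted p = 0.0921). Maf was called higher in both iTreg groups than in Tconv, at 8.75 to 8.82 in pltTGFβ_iTreg, 10.06 to 10.25 in purTGFβ_iTreg and 3.60 to 3.78 in Tconv. The Rora call was lost without Tconv replicate 2, without purTGFβ_iTreg replicate 1 or 3 and without any 1 pltTGFβ_iTreg array, with limma adjusted p of 0.125 to 0.305, and under quantile normalization (0.141). The mean of the Rora probe sets gave -0.33, which was not called, and 2 of its 8 other probe sets were called lower (range -0.99 to 0.13). Batf, which opens chromatin in activated T cells, fell by 1.31 in pltTGFβ_iTreg and fell by 1.80 in purTGFβ_iTreg against Tconv.

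The partner of STAT2 and interferon targets held no call in the direction of Stat2 in purTGFβ_iTreg against Tconv. Irf9, the DNA-binding partner, gave 0.41 in purTGFβ_iTreg against Tconv (adjusted p = 0.00273), under the fold cutoff. Of 8 measured genes in that list none rose and 3 fell in purTGFβ_iTreg, namely Usp18, a brake on interferon signaling (-1.53), Rsad2, an antiviral enzyme (-0.63), and Irf7, an inducer of interferon genes (-0.50). Of all genes, 14.5% were called higher and 14.9% lower there, so the lack of a rise among 8 genes says little. Several of them were also dim, which limits what they can show. Over all arrays Irf7 read 3.68 to 4.39 and Rsad2 4.18 to 5.14. Ifit1 (2.77 to 3.39), Mx1 (2.80 to 3.37) and Oasl2 (2.45 to 2.78) were dimmer, and were named after their values were seen. The Irf7 call was lost under quantile normalization (-0.40), with centred array medians (-0.44), without Tconv replicate 2 (-0.46) and without purTGFβ_iTreg replicate 1 (-0.44). In pltTGFβ_iTreg against Tconv 1 gene of the list was called, Rsad2 (-0.54), where 13.9% of all genes were called higher and 14.7% lower. Usp18 at -0.495 (limma adjusted p = 0.00963) lay just under the fold cutoff there. The count was 2 under quantile normalization and without pltTGFβ_iTreg replicate 3. The Rsad2 call was lost without Tconv replicate 1 (-0.46), without pltTGFβ_iTreg replicate 1 (-0.40) and with centred array medians (-0.48). With the mean of its probe sets Rsad2 was not called in pltTGFβ_iTreg (-0.43) or in purTGFβ_iTreg (-0.41). Usp18 was 2.04-fold higher in pltTGFβ_iTreg than in purTGFβ_iTreg, while the Stat2 difference ran the other way.

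Of 12 genes that STAT5 is known to induce, 6 rose and none fell in pltTGFβ_iTreg against Tconv (list median 0.82, all genes -0.16). In purTGFβ_iTreg against Tconv 5 rose and 3 fell (list median 0.28, all genes -0.17). Of all genes, 13.9% and 14.5% were called higher and 14.7% and 14.9% lower in those comparisons, in that order. Bcl2, a survival factor, rose by 1.87 and 1.79 in those comparisons, and Il2ra, the high-affinity IL2 receptor chain, by 1.73 and 1.68. Stat5a was lower than in Tconv in both, called only in pltTGFβ_iTreg. Between pltTGFβ_iTreg and purTGFβ_iTreg 2 were higher, the cytotoxic protease gene Gzmb (31.0-fold) and the cyclin gene Ccnd2 (1.49-fold). Of all genes, 1.54% were called higher and 2.57% lower there. Gzmb read 11.63 to 11.80 in pltTGFβ_iTreg, 6.66 to 6.89 in purTGFβ_iTreg and 10.03 to 10.18 in Tconv. Ccnd2 read 12.23 to 12.39, 11.71 to 11.78 and 12.19 to 12.46 in that order, so only purTGFβ_iTreg stood apart, below the others.

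**Figure D5:**
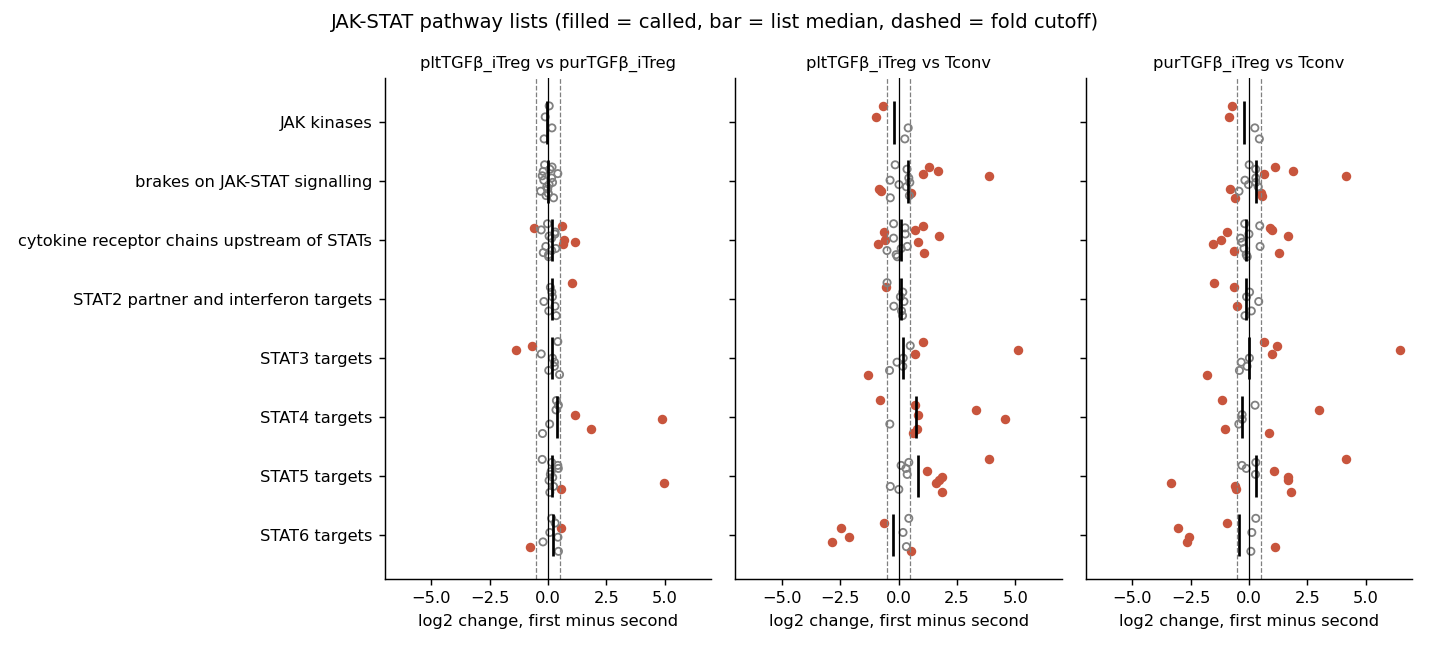
Log2 change (first group minus second) of every measured gene of the JAK-STAT pathway lists in the 3 comparisons; filled points were called, open points were not, black bars are list medians and dashed lines the fold cutoff. Between pltTGFβ_iTreg and purTGFβ_iTreg the kinases and brakes hold no call, and the STAT4 list has the highest median (0.40).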

How the data were processed

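Values are log2 expression as deposited by the authors, computed in Expression Console by Robust Multichip Analysis (RMA), which corrects background, quantile normalizes arrays and gives 1 value per probe set, per the series' design text. The same text has them testing in Partek Genomics Suite 6.6 at a false discovery rate and a fold equal to the cutoffs used here. The table holds no detection calls. Of 45101 rows, 64 control probe sets were left out and 45037 tested in 1 limma model over all 9 arrays (limma 3.58.1, R 4.3.3), two-sided, with Benjamini-Hochberg adjustment. The number of arrays limits the precision. The labels call the arrays replicates and the design text biological replicates. The fit was tested on simulated data. Figures used Python 3.11.15 and matplotlib 3.10.9.

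Members and lists were chosen with earlier results of these data known. Named by rule were the members, up to 4 called genes per list with the lowest adjusted p, a fixed set of pathway genes and the 2 genes most like each called member. List genes that no named probe set reads were not analysed here. Alternatives were other scalings, a filter on dim probe sets, another variance model, 2-group fits, the replicate block, averaging probe sets within genes, leaving out single arrays, and 2 stricter sets of cutoffs.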

Additional observations from a re-analysis of the deposited data

How the results depend on the processing

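Stat4 kept its direction and its call in all 3 comparisons under every alternative but the stricter cutoffs (adjusted p under 0.05, absolute log2 change above 1), where its difference of 0.83 between the iTreg groups no longer passed. The stricter cutoffs left 0, 1 and 1 members called in pltTGFβ_iTreg against purTGFβ_iTreg, pltTGFβ_iTreg against Tconv and purTGFβ_iTreg against Tconv, and 6, 18 and 22 pathway genes in place of 14, 34 and 37. Between the iTreg groups no member passed them, against 4 members at an adjusted p under 0.1 with no fold cutoff (limma), which 9.72% of all genes passed. They also ended the calls of Stat2 (0.61) and Stat5a (-0.75) against Tconv. Quantile normalization ended the Stat2 call in purTGFβ_iTreg (0.38) and added Stat5a (-0.50) and Stat6 (-0.58) there. In pltTGFβ_iTreg against Tconv it added Stat5b (-0.59) and Stat6 (-0.60), which made 4 members. It turned Stat3 in pltTGFβ_iTreg (-0.070) and Stat5b in purTGFβ_iTreg (-0.12) against Tconv. Centred array medians added Stat3 in purTGFβ_iTreg (0.53). The mean of the probe sets ended the Stat2 call (0.48), added Stat6 in pltTGFβ_iTreg (-0.53) and purTGFβ_iTreg (-0.55) against Tconv, and turned Stat6 between the iTreg groups (0.020). The cause of these shifts was not tested. Leaving out each array in turn gave -0.034 to 0.12 for Stat5b, -0.52 to -0.38 for Stat6 and 0.42 to 0.53 for Stat3 (2 to 3 members called) in purTGFβ_iTreg against Tconv. It gave -0.029 to 0.048 for Stat3, -0.51 to -0.40 for Stat5b, -0.56 to -0.43 for Stat6 and 2 to 4 members in pltTGFβ_iTreg against Tconv. Between the iTreg groups it gave -0.51 to -0.42 for Stat3, -0.56 to -0.43 for Stat5b, -0.43 to -0.19 for Stat5a, -0.098 to 0.014 for Stat6 and 1 to 3 members. Of 1656 values of named pathway genes under the alternatives, 1605 kept direction and side of the cutoffs, 48 lost the call, 3 gained it and 0 reversed. With the replicate block the counts of members called were 1, 2 and 2 and of pathway genes 14, 34 and 37, and it changed no call. Same-numbered arrays of pltTGFβ_iTreg and purTGFβ_iTreg had correlations of deviations of 0.19, 0.26 and 0.092. Different-numbered arrays of these groups gave lower values, from -0.24 to 0.048, so a pairing of the iTreg arrays by number is not settled. Same-numbered arrays gave -0.099, -0.040 and 0.085 for pltTGFβ_iTreg and Tconv, and -0.059, -0.12 and 0.085 for purTGFβ_iTreg and Tconv. The main fit did not take the numbers as a pairing. Array signal over background was not measured, which limits dim genes.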
